A study of Mus musculus with 6 samples.

Results

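The oligodendrocyte lineage genes are 28 genes of myelinating oligodendrocytes and of their precursors. Of these, 27 were found by name in a table of 23079 genes. The table covers midbrain libraries labelled as dopaminergic neurons, with and without knockdown of the chromatin organiser Satb1. The missing name was Myrf, whose NCBI gene number stands in the table under the older symbol Gm98; its values are given below but it is not counted among the 27. All 27 passed the filter on low counts, as did 16766 genes in all. By stage they comprise 15 genes of mature, myelin-forming cells (Mbp, Mog, Mag, Mobp, Cnp, Cldn11, Ermn, Opalin, Aspa, Ugt8a, Fa2h, Trf, Mal, Cldn14 and Hapln2), 3 transcription factors of the whole lineage (Sox10, Olig1 and Olig2) and 9 genes of precursors (Pdgfra, Cspg4, Gpr17, Lhfpl3, Neu4, C1ql1, Matn4, Tmem100 and Cacng4).

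Oligodendrocytes wrap axons in myelin, a stack of membrane rich in galactolipids and in a few abundant proteins. They arise from precursor cells that divide in response to platelet-derived growth factor through the receptor encoded by Pdgfra. Transcription factors of the SOX and OLIG families act throughout the lineage, and the regulator MYRF switches on myelin genes as cells mature. The ventral midbrain contains many myelinated axons, so oligodendrocytes lie among the dopaminergic neurons there.

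All 6 libraries came from C57BL/6 mice aged 4 months that carry the Dat bacTRAP transgene, in which the dopamine transporter gene drives a tagged ribosomal protein. For control libraries the midbrain had been injected with adeno-associated virus serotype 1 carrying a scrambled short hairpin RNA and EGFP. For knockdown libraries the same virus carried a hairpin against Satb1 and EGFP. The sample titles call the treatment siRNA. There were 3 control and 3 knockdown libraries, and the labels give 3 mice for the experiment without tying libraries to mice, so the p-values below rest on variation among libraries that may be technical. Tissue was cut from slices 1 mm thick and held 2 dopaminergic regions, the ventral tegmental area and the pars compacta of the substantia nigra. The labels name dopaminergic neurons as the cell type and total RNA as the molecule, and they mention no ribosome capture or cell sort.

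Library totals lay between 147486754 and 170351145 counts, and 1 count was worth 0.00557 to 0.00672 CPM (the count scaled to library size, here with the trimmed mean of M-values, TMM). Satb1 was at 351, 350 and 319.8 CPM in control libraries 1 to 3 and at 82.9, 166 and 61.2 CPM in knockdown libraries 1 to 3, so that knockdown library 2 kept the most of it. The defining dopamine neuron markers were abundant: Th, which encodes tyrosine hydroxylase, was between 3181 and 3763 CPM in controls, and between 2118 and 2689 CPM in the knockdown. Mbp, the marker of mature oligodendrocytes, lay between 71.2 and 151 CPM and Pdgfra, the marker of precursors, between 1.77 and 5.65 CPM, so RNA of both stages was detected in all 6 libraries.

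Levels in control libraries were compared between genes per kilobase of exon. Cnp was the highest member at 23.8 ± 2.36 CPM per kilobase (SD, n = 3), at percentile 85.9 of the tested genes with an annotated length. Next came Lhfpl3 at 12.2 ± 0.631, Mbp at 10.1 ± 1.49, Trf at 9.76 ± 0.921 and Mobp at 9.48 ± 1.59 CPM per kilobase. The ranges of Mbp, Trf and Mobp overlapped from each to the next, whereas Cnp and Lhfpl3 each stood apart from the gene below. Mal, Cldn11, Ermn and Olig1 followed between 7.98 and 5.39 CPM per kilobase, with each overlapping the next. The lineage factors Sox10 and Olig2 lay at 1.65 ± 0.193 and 1.44 ± 0.165. Every precursor gene except Lhfpl3 was below 1 CPM per kilobase, from C1ql1 at 0.956 ± 0.491 down to Matn4 at 0.0542 ± 0.0726. Pdgfra, at 0.198 ± 0.0216, stood at percentile 15.2, and Neu4, at 0.158 ± 0.0256, at percentile 13.5. For comparison, Th was at 1484 CPM per kilobase. Levels of the mature genes spread by a coefficient of variation between 2.08% (Aspa) and 35.7% (Opalin) in controls, apart from Cldn14 at 106%.

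Genes of mature oligodendrocytes and 2 of the 3 lineage factors were higher in the knockdown, with called folds from 1.42 (Trf) to 1.83 (Mog), while most precursor genes did not pass the test. Of the 27 members 14 were called higher by the quasi-likelihood test of edgeR at a Benjamini-Hochberg adjusted p under 0.05, where 8.48% of all tested genes were called higher and 21.1% in either direction. They were 11 of 15 mature genes, 2 of 3 lineage factors and 1 of 9 precursor genes. edgeR called 0 members lower, where it called 12.6% of all tested genes lower at the same adjusted p under 0.05. DESeq2 also called 0 members lower, and 0 were lower at an unadjusted p under 0.05 in edgeR. All 3 knockdown libraries lay above all 3 control libraries for 17 of the 27 members (12 mature genes, 3 factors and 2 precursor genes), against 17.9% of all tested genes, and below them for 0 members, against 20.8%. The median log2 fold change was 0.60 for the mature genes, 0.70 for the factors and -0.04 for the precursor genes, and 0.01 for all tested genes. The difference between the stages was not tested. The median biological coefficient of variation (spread between libraries beyond counting noise) was 0.36 for the precursor genes and 0.16 for the mature genes. A change of a given size was therefore harder to call among the precursor genes. The precursor median was 0.30 without control library 2 and 0.35 with the replicate number as a block, where the mature median was 0.65 and 0.60. The number of members higher was 8 without control library 1 and 9 without control library 2 or knockdown library 3, and that of mature genes 7 without control library 1. With total counts in place of TMM scaling the median of all genes moved to 0.18 and those of mature and precursor genes to 0.77 and 0.12. With that scaling 74.0% of all called genes were higher, against 40.2%, 16 members were called higher and 0 lower. In bulk RNA, a change in the number of cells of a type and a change in RNA per cell cannot be told apart.

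**Figure D1:**
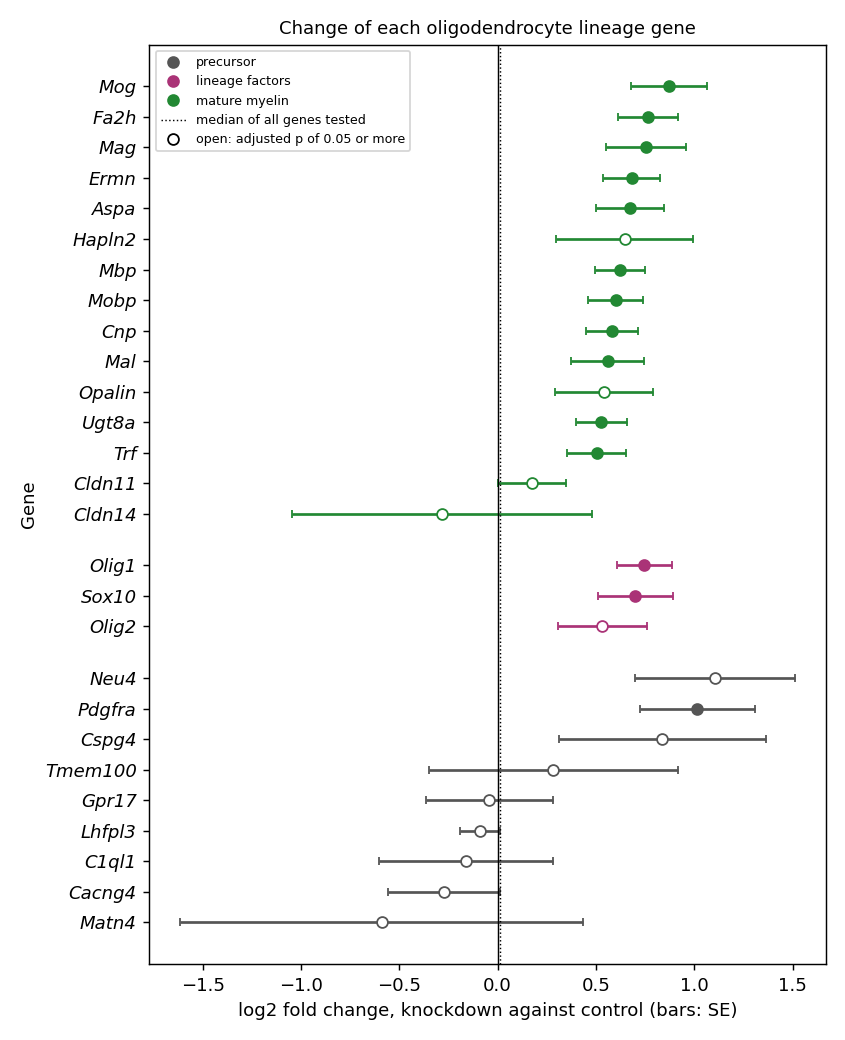
Log2 fold change of each of the 27 members, knockdown against control, with its standard error (bars, n = 3 libraries per group) and grouped by stage; filled points passed the test at an adjusted p under 0.05. Of the mature genes 14 of 15 lie to the right of 0, as do all 3 factors, and 4 of 9 precursor genes do.

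Structural proteins of myelin were among the members that rose. Mbp, which encodes myelin basic protein, the protein that compacts the membrane layers, was at 94.5, 91.4 and 71.2 CPM in control libraries 1 to 3 and at 151, 127 and 119 CPM in knockdown libraries 1 to 3. The groups did not overlap, and control library 3 was the lowest of all. The control mean was 85.7 ± 12.6 CPM and the knockdown mean 132 ± 16.6 CPM (SD, n = 3). The log2 fold change was 0.62 ± 0.13 (± SE throughout; edgeR adjusted p = 0.00456). Mobp, another compact myelin protein, showed the same order, at 73.0, 69.3 and 52.5 CPM in controls and 113, 99.2 and 83.4 CPM in the knockdown (log2 fold change 0.60 ± 0.14, adjusted p = 0.00975). Without knockdown library 1 its adjusted p was 0.0508. Mog, a glycoprotein of the outermost myelin surface, was at 5.57, 6.22 and 7.92 CPM in controls and at 14.5, 9.86 and 11.7 CPM in the knockdown. Here control library 3 was the highest control, and still below every knockdown library. With 1.83-fold (log2 fold change 0.87 ± 0.19, adjusted p = 0.00742), Mog had the largest fold of the mature members.

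Enzymes and surface proteins of oligodendrocytes rose by like amounts. Cnp, a phosphodiesterase of non-compact myelin, was at 76.5, 91.1 and 91.7 CPM in controls and at 115, 115 and 159 CPM in the knockdown (log2 fold change 0.58 ± 0.13, adjusted p = 0.00883). Knockdown library 3 was the highest and the groups did not overlap. Mag, an adhesion protein facing the axon, was at 6.48, 9.60 and 9.45 CPM in controls and at 13.98, 11.1 and 17.99 CPM in the knockdown (0.75 ± 0.20, adjusted p = 0.0193). The call for Mag was lost without control library 1 or knockdown library 3, with adjusted p-values up to 0.0762. Ermn, a cytoskeletal protein of myelinating cells, rose from 19.6 ± 3.29 to 31.4 ± 3.76 CPM (0.68 ± 0.14, adjusted p = 0.00578), without overlap. About 4.23% of the exon bases of Cnp and 6.52% of those of Ermn also lie in an exon of a gene on the opposite strand, Dnajc7 and Galnt5. Since strand use in counting is not given, reads there could belong to either gene.

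Both galactolipid enzymes among the members rose. Fa2h, which hydroxylates the fatty acids of myelin lipids, was at 11.8, 9.18 and 11.1 CPM in controls and at 21.3, 17.3 and 15.9 CPM in the knockdown. All knockdown libraries were above all controls, with a log2 fold change of 0.76 ± 0.15 (adjusted p = 0.00453). Ugt8a, which transfers galactose to ceramide, was at 15.5, 12.8 and 15.1 CPM in controls and at 21.3, 22.1 and 19.1 CPM in the knockdown (0.53 ± 0.13, adjusted p = 0.0127). The groups were again apart, and the call was lost without control library 2 (adjusted p = 0.063). Aspa, which releases acetate from N-acetylaspartate, was nearly level across controls, at 10.4, 10.9 and 10.7 CPM, and was at 13.0, 16.2 and 21.7 CPM in the knockdown (0.67 ± 0.17, adjusted p = 0.0161). The knockdown libraries differed from each other far more than the controls did, and the call was lost without control library 1 or knockdown library 3 (adjusted p up to 0.0599).

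The calls for Trf and Mal depended on single libraries more than those of the other mature genes. Trf, which encodes the iron carrier transferrin, was at 34.7, 29.0 and 33.6 CPM in controls and at 43.2, 37.2 and 57.5 CPM in the knockdown (log2 fold change 0.50 ± 0.15, adjusted p = 0.0313). Mal, a membrane sorting protein of myelin, was at 25.3, 25.9 and 15.4 CPM in controls and at 38.3, 31.7 and 27.96 CPM in the knockdown (0.56 ± 0.18, adjusted p = 0.0478). Neither gene's groups overlapped. The call for Trf was lost without any single library other than knockdown library 2 (adjusted p up to 0.128), and that for Mal without any other than knockdown library 3 (up to 0.179). Exons of the predicted gene Gm20425 on the same strand cover 63.5% of the exon bases of Trf, so its counts may hold reads of both.

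A further 4 mature genes did not pass the test. Cldn11, the claudin of the tight junctions between myelin layers, was at 10.0, 12.4 and 7.98 CPM in controls and at 11.1, 10.97 and 12.3 CPM in the knockdown (log2 fold change 0.18 ± 0.17, adjusted p = 0.520). Every knockdown value lay within the range of the controls. Opalin, a glycoprotein of oligodendrocytes, was at 5.33, 6.38 and 2.97 CPM in controls and at 7.80, 6.82 and 6.74 CPM in the knockdown (0.54 ± 0.25, adjusted p = 0.150). Its groups did not overlap, and control library 3 was well below the other controls. Hapln2, a link protein of the matrix at nodes of Ranvier, overlapped between 1.97 CPM in control library 3 and 1.91 CPM in knockdown library 2 (0.65 ± 0.35, adjusted p = 0.216). Cldn14, another claudin, was at 0.283, 0.208 and 1.41 CPM in controls and at 0.440, 0.390 and 0.729 CPM in the knockdown (-0.28 ± 0.76, adjusted p = 0.843). Control library 3 alone set the sign for Cldn14, whose log2 fold change was 1.08 without it.

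**Figure D2:**
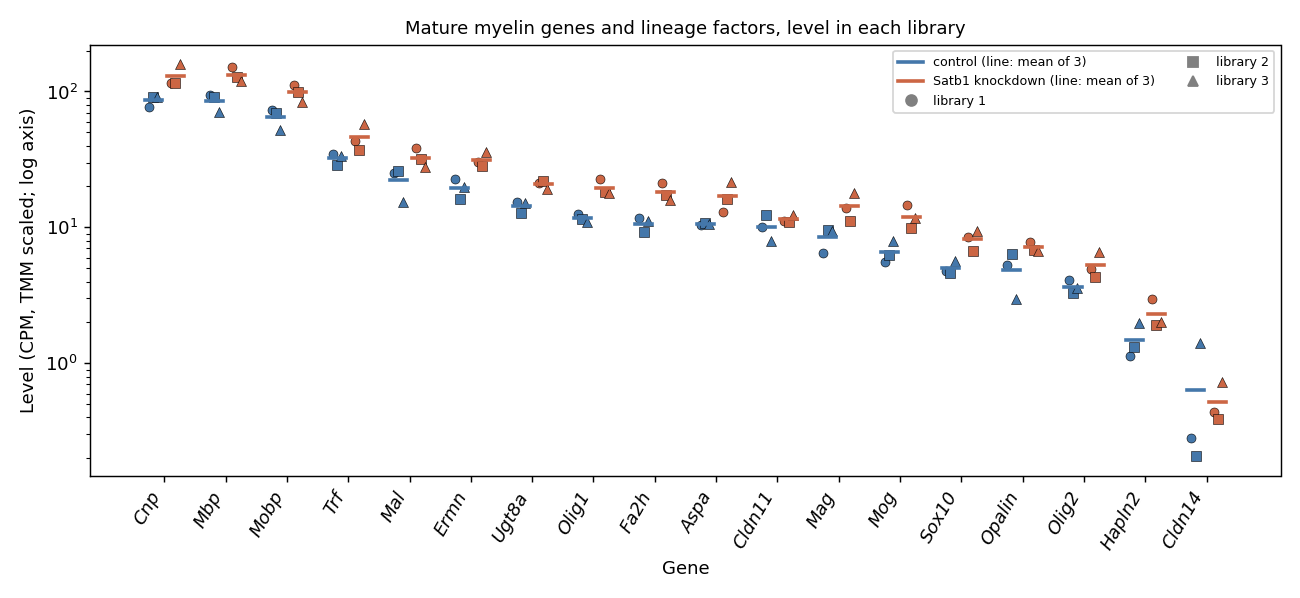
Level of the 15 mature myelin genes and 3 lineage factors in each library, in TMM-scaled CPM on a log axis; points are libraries (circle, square and triangle for libraries 1 to 3) and lines the mean of 3. The knockdown points of Mbp, at 119 to 151 CPM, all lie above its control points, at 71.2 to 94.5 CPM, while those of Cldn11 lie within the control range.

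The promoters of 3 mature genes that rose and of the precursor gene Lhfpl3, which did not pass the test, are shown as examples of what stands just before start sites. Each line gives the 250 bases before the RefSeq start, 5′ to 3′ on the gene's strand in GRCm38.p6, with matches to the searched motifs in capitals. Matches were sought on both strands. The SOX motif was read as ACAAAG, or in its other form as ACAATG. The MYRF motif was read as CTGGCAC or as its variant CTGGTAC. The E-box was read either as the palindrome CAGCTG or as the palindrome CATATG, and the TATA box as TATAAA.
Mobp, chr9:120149492-120149741, plus strand: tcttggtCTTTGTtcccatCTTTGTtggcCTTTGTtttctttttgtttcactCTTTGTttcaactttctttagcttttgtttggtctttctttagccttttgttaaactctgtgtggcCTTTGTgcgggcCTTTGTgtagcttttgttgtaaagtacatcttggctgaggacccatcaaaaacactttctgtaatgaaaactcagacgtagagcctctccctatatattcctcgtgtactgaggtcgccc
Mog, chr17:37023399-37023648, minus strand: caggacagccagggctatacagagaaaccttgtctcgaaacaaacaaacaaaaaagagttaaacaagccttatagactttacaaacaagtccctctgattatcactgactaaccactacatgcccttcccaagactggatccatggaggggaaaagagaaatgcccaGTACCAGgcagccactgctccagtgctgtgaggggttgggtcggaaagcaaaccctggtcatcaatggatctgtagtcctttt
Cnp, chr11:100574689-100574938, plus strand: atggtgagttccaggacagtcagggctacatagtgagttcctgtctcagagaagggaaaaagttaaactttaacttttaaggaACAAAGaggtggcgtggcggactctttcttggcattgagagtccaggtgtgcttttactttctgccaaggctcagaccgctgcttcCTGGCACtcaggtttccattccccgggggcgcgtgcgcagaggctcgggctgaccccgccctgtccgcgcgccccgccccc
Lhfpl3, chr5:22745804-22746053, plus strand: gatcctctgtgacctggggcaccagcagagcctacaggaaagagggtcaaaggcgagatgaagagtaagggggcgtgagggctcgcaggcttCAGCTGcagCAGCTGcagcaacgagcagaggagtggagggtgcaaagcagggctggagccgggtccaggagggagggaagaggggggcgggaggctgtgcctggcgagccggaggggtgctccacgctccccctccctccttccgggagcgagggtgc

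The window of Mobp held 6 SOX matches, all as the reverse complement, the nearest starting 120 bases before the start site. That of Cnp held 1 SOX match and 1 MYRF match, and that of Mog 1 MYRF match starting 83 bases before the start. Lhfpl3 held 2 neighbouring E-box matches. Of the 27 members 18 had at least 1 window in the RefSeq table, 13 of them mature genes or factors and 5 precursor genes. SOX letters were found in 8 of the 13 and 0 of the 5, and MYRF letters in 4 of the 13 and 0 of the 5. By call, SOX letters were in 4 of the 8 mature genes called higher and in 4 of the 5 mature genes or factors not called, and MYRF letters in 3 of the 8 and 1 of the 5. The called genes Aspa, Mal, Ugt8a and Pdgfra held neither, while Hapln2, which was not called, held both. As a check of the start, the 30 bases after it were sought in GENCODE transcripts of the same gene. They were found for 17 of the 23 member windows. Those of Aspa, Ugt8a, Pdgfra and Lhfpl3 were among the windows without such a match, so their start sites are less certain. Counted by window, SOX matches occurred in 39.1% of 23 member windows and in 25.2% of all 32851 windows, and MYRF matches in 21.7% and 5.93%. E-box matches were in 17.4% of member windows and 16.1% of all, and TATA matches in 8.70% and 12.4%. Some windows of 1 gene overlap and hold the same match, such as a pair of the 3 windows of Mag. These matches are letters in a window, and the data hold no measurement of binding there.

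Olig1 and Sox10 rose, and Olig2 lay above the control in each knockdown library without passing the test. Olig1, a basic helix-loop-helix factor needed for myelin repair, was at 12.5, 11.5 and 10.9 CPM in controls and at 22.6, 18.2 and 17.9 CPM in the knockdown. Its groups were far apart relative to their spread, with a mean going from 11.6 ± 0.824 to 19.5 ± 2.66 CPM (log2 fold change 0.75 ± 0.14, adjusted p = 0.00293), the smallest p of the members. Sox10, a factor that keeps cells in the lineage and activates myelin genes, was at 4.75, 4.63 and 5.71 CPM in controls and at 8.43, 6.72 and 9.39 CPM in the knockdown (0.70 ± 0.19, adjusted p = 0.0204). That call was lost without control library 1 or 2 or knockdown library 1 or 3, with adjusted p-values up to 0.0768. Olig2, the factor that specifies the lineage, was at 4.10, 3.27 and 3.60 CPM in controls and at 4.94, 4.33 and 6.60 CPM in the knockdown (0.53 ± 0.23, adjusted p = 0.116). With total-count scaling Olig2 passed (adjusted p = 0.0428). Olig1 and Olig2 are neighbours on the plus strand of chromosome 16 in GRCm38, at chr16:91269772-91271933 and chr16:91225457-91228677. The predicted gene Gm15966 on the opposite strand shares 7.26% of the exon bases of Olig1.

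Myrf, listed as Gm98, was at 9.14, 10.5 and 9.84 CPM in controls and at 14.1, 15.1 and 13.3 CPM in the knockdown. The groups did not overlap, with a log2 fold change of 0.53 ± 0.14 (adjusted p = 0.0176). Its call was lost without control library 1 or either of knockdown libraries 1 and 2 (adjusted p up to 0.0607).

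Pdgfra was the one precursor gene called, and it doubled. It was at 1.99, 2.20 and 1.77 CPM in controls and at 3.33, 3.06 and 5.65 CPM in the knockdown, or 263 to 339 counts against 471 to 900. No control reached the lowest knockdown library, and knockdown library 3 stood above the other two. The log2 fold change was 1.02 ± 0.29 (adjusted p = 0.0265), and 0.70 without knockdown library 3 (adjusted p = 0.134). The call was also lost without any 1 of the control libraries (adjusted p between 0.0522 and 0.0753). Exons of Gm42802 and Gm42803 on the opposite strand share 6.21% of its exon bases. Neu4, a sialidase expressed in this lineage, showed a like shift at a lower level, from 0.818, 0.785 and 0.598 CPM to 1.26, 1.83 and 1.65 CPM. Its groups did not overlap, and it missed the threshold (log2 fold change 1.10 ± 0.41, adjusted p = 0.0726). It passed with total-count scaling, with DESeq2 and with a filter at a mean of 1 CPM (adjusted p = 0.0414, 0.0226 and 0.0303).

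Cspg4, which encodes the NG2 proteoglycan of precursors and of pericytes, varied most between libraries of 1 group among members above 1 CPM. It was at 1.57, 4.67 and 6.21 CPM in controls and at 3.96, 3.59 and 14.7 CPM in the knockdown. Knockdown libraries 1 and 2 lay within the control range, and library 3 alone was above it. The log2 fold change of 0.84 ± 0.53 (adjusted p = 0.292) was -0.12 without that library. The summed level of 8 listed genes of mural cells, the class that holds pericytes, was 10.6 CPM in that library and 20.4 and 19.9 CPM in knockdown libraries 1 and 2. The part of these cells in the level of Cspg4 was not tested.

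Lhfpl3, a four-pass membrane protein gene, was the most abundant precursor member, and its fold change had the smallest standard error of the 27. It was at 40.1, 40.8 and 37.0 CPM in controls and at 36.2, 38.4 and 36.3 CPM in the knockdown. The groups overlapped, with a coefficient of variation of 5.16% and 3.39%. Its log2 fold change was -0.09 ± 0.10 (adjusted p = 0.599), or 0.08 with total-count scaling. The gene A930003O13Rik on the opposite strand shares 17.6% of its exon bases. Per kilobase it stood at 11.5 ± 0.390 CPM in the knockdown, where Pdgfra was at 0.401 ± 0.142. In controls the same levels were 12.2 for Lhfpl3 and 0.198 for Pdgfra. The part of cells outside the lineage in the level of Lhfpl3 was not tested.

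The other precursor genes showed no shift that exceeded the spread between libraries. Gpr17, a receptor of cells committed to differentiate, lay between 2.04 and 3.35 CPM in controls and between 1.605 and 3.03 CPM in the knockdown (log2 fold change -0.04 ± 0.32). Cacng4, a subunit that accompanies AMPA receptors, lay between 2.11 and 3.05 CPM and between 1.75 and 2.46 CPM (-0.27 ± 0.28). C1ql1, a secreted C1q-domain protein, was at 0.760 to 2.19 CPM and 1.11 to 1.53 CPM (-0.16 ± 0.44). Tmem100, a small membrane protein gene also known from endothelium, was at 0.247 to 0.763 CPM and 0.402 to 1.00 CPM (0.28 ± 0.63). Adjusted p-values of these genes were between 0.547 and 0.948. Matn4, a matrix protein, was the lowest member, with 8 to 110 counts in controls and 24 to 41 in the knockdown (-0.59 ± 1.02, adjusted p = 0.739). Control library 2 held the 110 counts, and without it the value was 1.53.

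**Figure D3:**
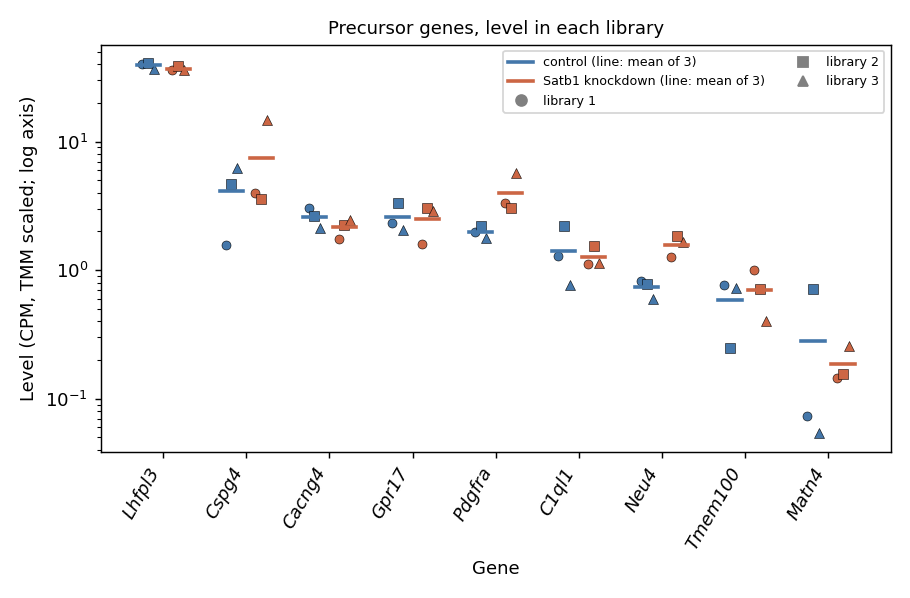
Level of the 9 precursor genes in each library, in TMM-scaled CPM on a log axis; points are libraries (circle, square and triangle for libraries 1 to 3) and lines the mean of 3. Pdgfra and Neu4 have all knockdown points above all control points, Cspg4 has 1 high knockdown library at 14.7 CPM, and Lhfpl3 stays between 36.2 and 40.8 CPM.

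Ratios of counts within a library do not depend on the scaling between libraries. For every 1000 counts of Mbp there were 133, 126 and 153 counts of Olig1 in controls and 150.1, 144 and 150.4 in the knockdown. Olig1 and Mbp thus kept similar proportions, and the groups overlapped. Mog varied more against Mbp, at 59.0 to 111 per 1000 in controls and 77.8 to 98.2 in the knockdown, with overlap. Pdgfra stood at 21.03, 24.1 and 24.8 counts per 1000 of Mbp in controls and at 22.1, 24.2 and 47.6 in the knockdown. Knockdown libraries 1 and 2 lay within the control range, and library 3 was about double. Cldn11 was lower relative to Mbp without overlap, at 106 to 136 per 1000 in controls and 73.7 to 104 in the knockdown. So were Gpr17, at 24.7 to 36.7 against 10.7 to 24.1, and Lhfpl3, at 424 to 519 against 241 to 306. Lhfpl3 went from between 18534 and 20913 per 1000 counts of Pdgfra to between 6417 and 12537, also without overlap. In CPM the groups of Cldn11, Gpr17 and Lhfpl3 overlapped. Their lower ratios are therefore not results separate from the higher levels of Mbp and Pdgfra. Against Th, Mbp was at 29.7, 25.5 and 18.9 counts per 1000 in controls and at 71.1, 47.1 and 49.0 in the knockdown. This last ratio joins the higher level of Mbp to the lower level of Th. No test of a single ratio was run, since with 3 libraries against 3 an exact 2-sided permutation p cannot go below 0.1.

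**Figure D4:**
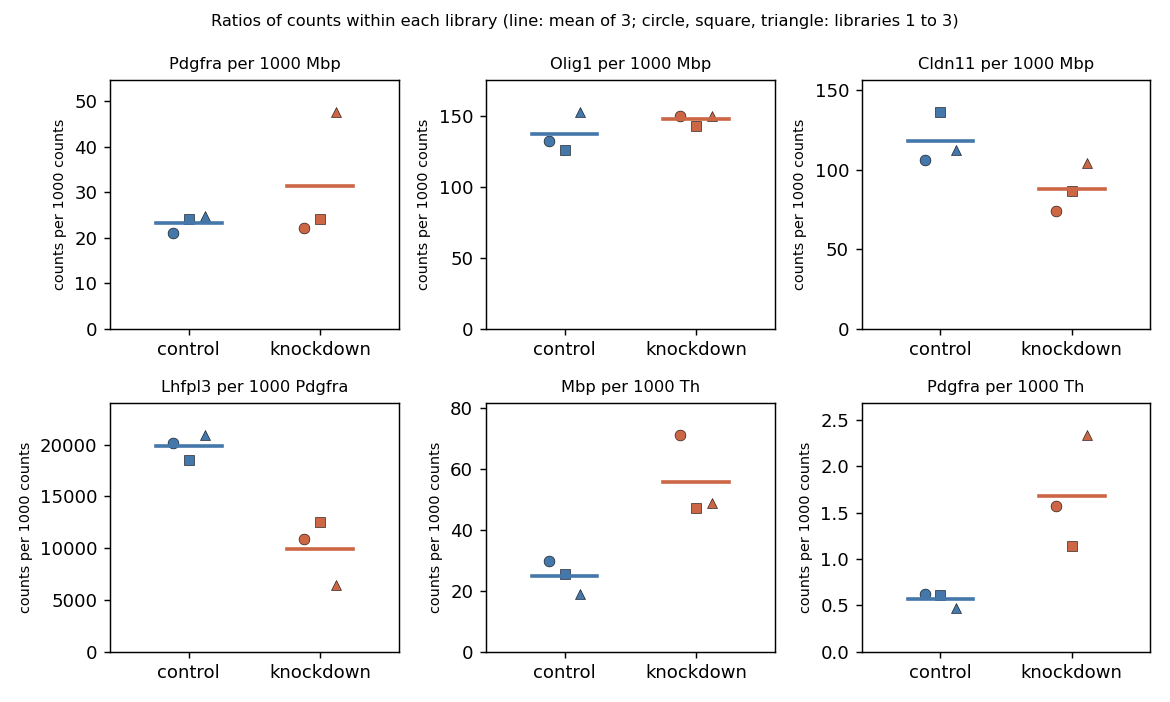
Ratios of raw counts between pairs of genes within each library, in counts per 1000 counts of the second gene; points are libraries and lines the mean of 3 per group. Olig1 per 1000 Mbp overlaps between the groups (126 to 153 against 144 to 150.4), whereas Lhfpl3 per 1000 Pdgfra and Mbp per 1000 Th do not.

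Other genes of the lineage were taken from lists by known role. Of 28 further genes of mature oligodendrocytes 11 rose, 1 fell and 16 did not pass, with a median log2 fold change of 0.48. Among those that rose were the small heat shock protein gene Cryab (0.88 ± 0.13, adjusted p = 0.000873), Apod, a lipid carrier (0.85 ± 0.20, adjusted p = 0.0109), and Car2, a carbonic anhydrase (0.51 ± 0.13, adjusted p = 0.015). Carns1, which encodes carnosine synthase, fell by 0.69 on the log2 scale, a call lost without control library 2 or 3 or knockdown library 1 or 3. The number higher was 5 without control library 2, 6 without control library 3 and 4 without knockdown library 1, and the call for Car2 was lost without control library 2 or 3. Total-count scaling gave 17 higher and 0 lower. Of 10 genes of newly formed oligodendrocytes 4 rose and 0 fell: Tcf7l2, a Wnt effector (0.70), Itpr2, a calcium release channel (1.25), 9630013A20Rik (1.44) and Bcas1 (0.56). The number higher was 2 without knockdown library 1 or 2, the last pair of calls being lost in both. The call for 9630013A20Rik was also lost without control library 1 or 2, and that for Bcas1 without control library 2 or 3. DESeq2 also called 0 of these lower, and 0 were lower at an unadjusted p under 0.05.

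Precursor genes outside the members were divided. Of 13 listed genes 2 rose, the transcription factor gene Sox5 (log2 fold change 0.88, adjusted p = 0.0495) and the matrix protein gene Tnr (0.45, adjusted p = 0.0499), and Megf11 fell (-0.58, adjusted p = 0.00182). The median was 0.15. The summed level of the 13 genes was 216 to 251 CPM in controls and 193 to 206 CPM in the knockdown, without overlap. With the same scaling the sum over all tested genes was also lower, at 1047540 to 1080967 CPM against 916813 to 959662 CPM. Neither higher call was stable: Sox5 was lost without control library 1 or 3 or knockdown library 1 or 3, and Tnr without any single library or with no filter on low counts. The number higher was 1 when control library 2 or knockdown library 2 was left out and 0 when any other was. Megf11 kept its call in all 12 alternatives.

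Enzymes of myelin lipid synthesis and signals that act on the lineage were mixed. Of the 9 genes listed for lipids 2 rose, among them Kdsr, an enzyme of ceramide synthesis (0.49), and 1 fell, Ugcg, which makes glucosylceramide (-0.39). Leaving out knockdown library 1 or either of control libraries 1 and 2, or scaling by total counts, ended the call for Ugcg. Of 26 signalling genes 2 rose, the growth factor receptor gene Fgfr2 (0.60, adjusted p = 0.00348) and Zeb2, a repressor of differentiation inhibitors (0.53, adjusted p = 0.0199), and 2 fell, the growth factor gene Igf1 (-0.56, adjusted p = 0.00796) and Rtn4, which encodes the myelin-associated inhibitor Nogo (-0.26, adjusted p = 0.0437). Zeb2 was lost without control library 2 or 3 or knockdown library 1 or 3, and Rtn4 without any single library, with RLE or total-count scaling and with a mean of at least 1 CPM. The ligand gene of the Pdgfra receptor, Pdgfa, was between 20.03 and 23.4 CPM in controls and between 20.9 and 23.6 CPM in the knockdown, with overlap. Signalling genes called higher numbered 4 when control library 1 or knockdown library 2 was left out, and 1 when control library 2 or knockdown library 1 was. The number lower was 1 whichever library was left out.

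Markers of other cells that share genes with this lineage, or that lie beside it, were measured in the same libraries. Schwann cells of peripheral nerve also express Mbp, Mag and Sox10. In that list 1 of 6 tested genes rose, Pmp22 (log2 fold change 0.89), a call lost without control library 2 or either of knockdown libraries 1 and 2, and the summed level of its 8 genes was 29.3 to 35.4 CPM against 35.9 to 38.3 CPM, controls first and without overlap. Of 13 astrocyte genes 3 rose (S100b, Aqp4 and Agt) and Slc1a2, the glial glutamate transporter, fell, with a median of 0.52 and a summed level of 484 to 594 against 525 to 642 CPM. The number higher was 0 when control library 3 or knockdown library 1 was left out, and 1 when knockdown library 3 was. With total-count scaling 8 were higher. S100b is also known in oligodendrocytes, and Sox9 stands in both the astrocyte and the signalling list.

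Of 14 microglia genes 3 rose (Cd68, Csf1r and Trem2) and 2 fell, among them P2ry12, with a median of 1.04 and a summed level of 55.3 to 58.2 CPM against 50.6 to 58.0 CPM. Left-out libraries changed these counts: 0 were higher without knockdown library 1, 1 when control library 1 or knockdown library 3 was left out, and 5 without knockdown library 2. Those lower were 0 without control library 2 or 3 or knockdown library 1, and 1 when control library 1 or knockdown library 3 was left out. Among 10 endothelial genes 1 rose, Cdh5, a call lost without either of control libraries 1 and 3 or knockdown libraries 1 and 3, and under a minimum mean of 1 CPM, and the summed level was at most 9.55 CPM in any library. edgeR called none of 8 mural and 5 fibroblast genes in either direction, where DESeq2 called 1 mural gene higher and 1 lower and no fibroblast gene. At an unadjusted p under 0.05 there were 2 mural genes, Anpep (3.61) and Notch3 (-0.58), and 0 fibroblast genes, though 1 fibroblast gene was called without control library 1. Their summed levels were 15.7 to 19.97 against 10.6 to 20.4 CPM and 0.592 to 2.77 against 1.42 to 4.41 CPM. Median log2 fold changes were 0.52 for the mural and 1.17 for the fibroblast genes, of which all 5 were above 0, with Col3a1 at 2.48 and Col1a1 at 1.44. Pdgfra is also known in fibroblasts, and the part of these cells in its level was not tested. Of 4 ependymal genes Rarres2 rose (0.51), in a sum of 30.2 to 31.2 against 35.2 to 44.0 CPM. Of 8 genes of other neurons Chat rose (1.20), in a sum of 253 to 327 against 264 to 397 CPM.

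Several genes of dopamine neurons and of neurons in general fell. Of 11 dopamine neuron genes 6 fell and 0 rose (0 also by DESeq2 and at an unadjusted p under 0.05), among them Slc6a3 (log2 fold change -0.72), Slc18a2 (-0.63), Th (-0.54) and Ret (-0.49), with a summed level of 12778 to 14066 CPM against 8711 to 10936 CPM. Of 9 pan-neuronal genes 5 fell, among them Tubb3 (-0.95), Syt1 (-0.86), Stmn2 (-0.35) and Snap25 (-0.31), and 1 rose, Nefl. Among the dopamine neuron genes total-count scaling gave 5 lower and 1 higher, and the replicate block 8 lower and 1 higher. With total-count scaling 2 of the pan-neuronal genes were lower, Snap25 and Stmn2 among those lost, and 3 were lower without knockdown library 1. Nefl was lost without any single control library and without knockdown library 3. The summed level of the 15 mature members was 353 to 393 CPM against 535 to 596 CPM, and that of the 9 precursor members 51.3 to 57.6 against 50.4 to 65.4 CPM, most of it Lhfpl3. Median log2 ratios to the control mean in knockdown libraries 1 to 3 were 0.67, 0.52 and 0.47 for mature members, -0.12, 0.12 and -0.08 for precursor members, 0.67, 0.38 and 0.60 for astrocyte genes, 0.86, 0.27 and 1.49 for microglia genes and -0.47, -0.30 and -0.50 for dopamine neuron genes. No gene of these marker lists was at 0 in all 6 libraries. The part that any of these other genes, or the scaling, had in the higher levels of the lineage genes was not tested.

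**Figure D5:**
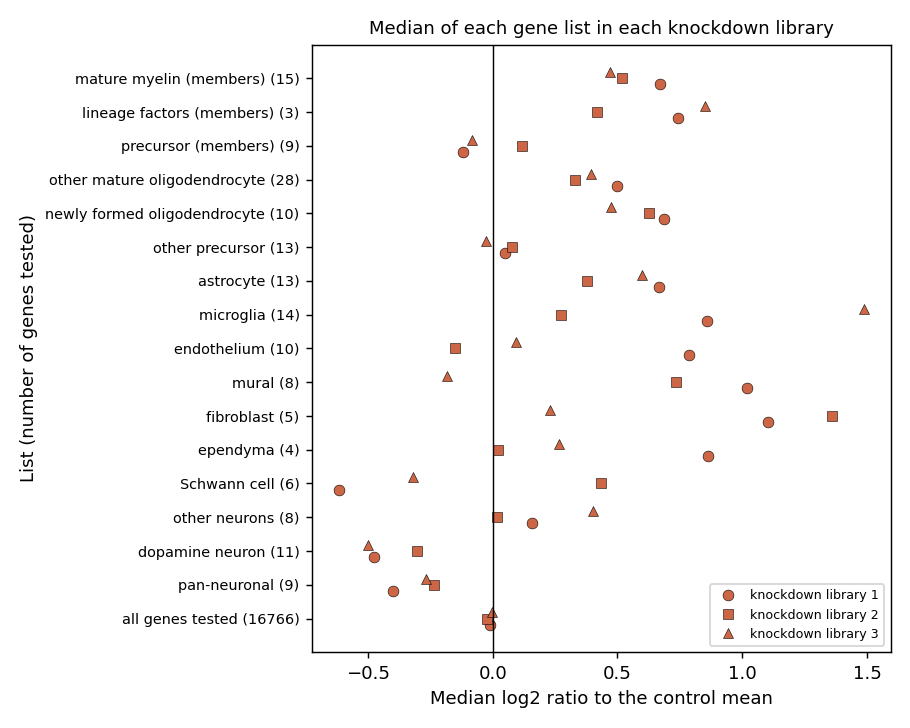
Median log2 ratio of each gene list to its control mean in each of the 3 knockdown libraries (circle, square and triangle for libraries 1 to 3), from TMM-scaled CPM, with the number of genes tested in brackets. Mature members lie at 0.47 to 0.67, precursor members at -0.12 to 0.12, dopamine neuron genes at -0.50 to -0.30, and all genes tested near 0. Newly formed oligodendrocyte genes lie at 0.47 to 0.69, astrocyte genes at 0.38 to 0.67 and microglia genes at 0.27 to 1.49.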

How the data were processed

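Gene expression was measured by RNA sequencing in 6 libraries, 3 control and 3 Satb1 knockdown, grouped by the sample titles. The authors deposited whole-number counts per gene, 1 column per library and not normalised. Per the submitters' processing notes, TopHat2 2.0.8 and mm10 were used; not given in the sources used here are the counting tool, the strand setting and the rule for reads with several alignments. Members were found by the name column, and Myrf and 3 other listed symbols by NCBI gene number. The members, stages, lists and tests were chosen with earlier results of these data known.

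Genes were tested with edgeR 4.0.16 (R 4.3.3) by its quasi-likelihood method, with TMM scaling, filterByExpr at its minimum count of 10 and total of 15, and Benjamini-Hochberg adjustment over 16766 genes at 0.05; the code was tested on simulated data. Standard errors were derived from the F statistic. Alternatives were RLE and total-count scaling, no filter or a mean of 1 CPM, DESeq2 1.42.0, the replicate number as a block, and each library left out. Exon lengths, positions and overlaps came from GENCODE M21 (GRCm38, the mm10 assembly) and promoter windows from RefSeq. Per-library medians used log2 ratios with 0.01 CPM added.

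Text outside the members names Satb1, from each list up to 4 called genes in order of p (2 genes in that order where none was called) and Th, Slc6a3, Gfap, Aif1, Pecam1 and Dcn; Gfap (log2 fold change 0.50), Aif1 (1.00) and Pecam1 (1.49) did not pass. Further names were chosen after their values were seen. Some genes that this rule names are not reported here. No library was a copy of another: chi-square per gene between libraries of a group was 58.5 to 156, where sampling noise gives about 1.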

Additional observations from a re-analysis of the deposited data

How the results depend on the processing

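All 14 members called higher stayed called in the 6 alternatives with all libraries, and Mbp, Mog, Cnp, Ermn, Fa2h and Olig1 in all 12. With 1 library left out, edgeR called 8 to 13 members higher (8 without control library 1, 9 without control library 2 or knockdown library 3) and 0 lower, 7 to 10 mature genes, 0 to 1 precursor genes, and 804 to 1356 genes higher and 1132 to 2054 lower in all. The log2 fold change of Pdgfra was then 0.70 to 1.18. With total-count scaling 2770 genes were higher and 972 lower, against 1421 and 2115, and 2 precursor genes were higher, as with DESeq2 and with a mean of at least 1 CPM. Signs that turned belonged to genes that did not pass: Gpr17 (0.12 with total counts, 0.0018 with a mean of 1 CPM) and Lhfpl3 (0.080 with total counts). With 1 library left out, Cldn14 ranged from -0.70 to 1.08, Cspg4 from -0.12 to 1.25, Gpr17 from -0.20 to 0.20, C1ql1 from -0.46 to 0.30, Matn4 from -1.08 to 1.53 and Tmem100 from -0.081 to 0.58.

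Same-numbered libraries were not paired by the labels, and their deviations from the group means correlated at 0.0564, 0.0127 and 0.108; all correlated best with their own number except knockdown library 2, which did so with control library 1 (0.048). With the replicate block 14 members and 11 mature genes were higher, Cldn14 was at 0.20 and Matn4 at 0.39, and 1924 genes were higher and 2789 lower in all.

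Counts of other lists that moved by over 1.5 times included these: total counts gave 5 signalling, 8 astrocyte and 5 microglia genes higher, 0 microglia and 2 pan-neuronal genes lower; DESeq2 gave 6 microglia genes higher; the block gave 4 signalling and 6 astrocyte genes higher and 2 precursor genes outside the members lower.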
